A study of Rattus norvegicus with 421 samples.

Results

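Ccl2, Cxcl1, Cxcl12 and Cxcl13, chemokines named for the injured liver, were followed in every treated group of a rat liver study. These 4 genes, of 10411 genes with a named probe set, were found by gene symbol on 6 of the 15866 probe sets of the array. Ccl2 was measured by probe set 1367973_at, Cxcl1 by 1387316_at, Cxcl13 by 1398390_at, and Cxcl12 by 1388583_at, 1387655_at and 1369633_at. The probe set 1388583_at, with the highest mean over all arrays, stands for Cxcl12 unless another is named.

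The study profiled livers of male Wistar Hanover rats on RAE230A arrays, 1 array per animal, after gavage with 1 of 30 compounds or a vehicle. There were 293 arrays of treated animals in 98 groups and 128 arrays of vehicle animals in 38 groups, 12 given saline, 86 carboxymethylcellulose (CMC) and 30 corn oil. Of the 5 rats dosed per treated group, 3 were chosen on liver histopathology for the arrays. A treated group held 3 animals, other than DES_1d with 2, and a vehicle group 3, 4 or 6. Acetaminophen (Aap, 4250 mg/kg) was sampled at 6, 12, 24 and 48 hours against saline of the same hour, and the sources used here do not give whether the dose was repeated. The compounds counted here as hepatotoxic besides Aap were Allyl alcohol (AlAl, 36 mg/kg), Thioacetamid (TAA, 19.2 mg/kg), Dimethylnitrosamine (DMN, 4 mg/kg), Aflatoxin B1 (AB1, 0.24 mg/kg), Methapyrilene HCl (MPy, 60 mg/kg), Ethionine (ETH, 200 mg/kg), Methylendianiline (MDA, 50 mg/kg), N-Nitrososmorpholine (NNM, 3.5 mg/kg), N-Nitrosopiperidine (NPip, 20 mg/kg) and the tobacco nitrosamine NNK (20 mg/kg). AlAl, ETH, MDA and NPip were sampled on days 1, 3, 7 and 14, NNK on days 7 and 14, and the others on days 3 and 7; group names such as ETH_1d give compound and day. MDA and DMN were given in corn oil, the other compounds of this list in CMC. Of the further compounds with results below, Cyproterone acetate (CPA, 100 mg/kg), C.I Direct Black (CIDB, 146 mg/kg) and 3-Methylcholanthrene (3-MC, 25 mg/kg) were given in corn oil. Diethyl-stilbestrol (DES, 10), Nifedipine (Nif, 3), Acetamide (AA, 3000), Dehydroepiandrosterone (DHEA, 600), Piperonyl-butoxide (PBO, 1200), Methylcarbamate (Mcarb, 400), Phenobarbital (PB, 80), Ibuprofen (Ibup, 94), Prazosin (Praz, 1), Cefuroxime (CFX, 250) and Propranolol (Prop, 40), doses again in mg/kg, were given in CMC. The remaining compounds, which enter the counts over all 98 groups, included 2-Nitrofluorene (2-NF, 44 mg/kg) and 1,4-Dichlorobenzene (DCB, 300 mg/kg), given in corn oil. The others were 2-Acetylaminofluorene (2-AAF, 1.2 mg/kg), Clonidine (Clon, 0.1 mg/kg) and Wy-14643 (Wy, 60 mg/kg), given in CMC. Several compounds were set against the same vehicle arrays, as their labels name, so their changes share the same controls.

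Chemokines are small secreted proteins that draw leukocytes along a gradient through receptors on the cell surface. Ccl2 recruits monocytes through the receptor Ccr2, and in injured liver it is known from Kupffer cells, stellate cells and hepatocytes. Cxcl1 recruits neutrophils through Cxcr2 and is an early product of inflammatory signalling through NF-kappa B. Cxcl12 is made by resting stromal and endothelial cells and holds or attracts cells bearing Cxcr4, with Ackr3 as a scavenging receptor. Cxcl13 draws B cells through Cxcr5 into lymphoid follicles. In whole liver, fewer cells of a type and less RNA per cell cannot be told apart.

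The promoters of 3 of the members were found in a table of RefSeq sequences of build GRCr8, each running from 250 bases before to 50 bases after the gene's start. They are shown because Cxcl1 was the member called higher earliest under Aap, while Cxcl12 was called lower. Capitals mark matches to GGGNNNNNCC, the general form of a kappa B site, on either strand, with overlapping matches run together.

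Cxcl1 promoter, chr14:17479272-17479571, minus strand: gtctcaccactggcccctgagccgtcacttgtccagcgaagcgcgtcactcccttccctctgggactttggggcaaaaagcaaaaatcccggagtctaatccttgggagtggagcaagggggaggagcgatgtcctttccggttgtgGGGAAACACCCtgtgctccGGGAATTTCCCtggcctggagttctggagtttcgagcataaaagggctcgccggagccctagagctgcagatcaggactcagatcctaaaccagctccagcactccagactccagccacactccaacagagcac

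Cxcl12 promoter, chr4:152060531-152060830, plus strand: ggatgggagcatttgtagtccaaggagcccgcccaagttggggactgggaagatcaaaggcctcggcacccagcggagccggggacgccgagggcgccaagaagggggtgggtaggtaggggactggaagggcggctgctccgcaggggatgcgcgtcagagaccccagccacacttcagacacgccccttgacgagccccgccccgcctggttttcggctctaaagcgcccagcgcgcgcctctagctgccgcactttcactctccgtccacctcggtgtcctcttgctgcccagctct

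Cxcl13 promoter, chr14:13917871-13918170, minus strand: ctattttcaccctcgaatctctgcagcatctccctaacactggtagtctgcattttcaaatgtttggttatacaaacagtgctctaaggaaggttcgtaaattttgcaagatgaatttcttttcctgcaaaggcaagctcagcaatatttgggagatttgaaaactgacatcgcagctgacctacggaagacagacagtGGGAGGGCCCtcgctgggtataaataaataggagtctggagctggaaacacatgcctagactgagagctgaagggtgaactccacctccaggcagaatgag

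In the Cxcl1 window the words GGGAAACACC, at -103 bases from the start, and GGGAATTTCC, at -84, matched on the coding strand, and each overlapped a match on the other strand. The Cxcl13 window held GGGAGGGCCC at -51, and the Cxcl12 window held no match. Among related genes the Cxcl2 and Cxcl10 windows held it as well. The pattern is loose: 47.3% of 33469 promoters of this length held it. A match describes letters in a window and not a site in use.

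All levels are log2 values as deposited, and a change is the mean of a treated group minus the mean of its own vehicle group on that scale, ± the standard error (SE) of the fit. A probe set was called where its adjusted p (limma, Benjamini-Hochberg over all 15866 probe sets) was below 0.05 and its change at least 1.5-fold. Array medians lay between 7.38 and 7.49. The albumin gene Alb, at a median of 15.1, and Apoa1, Ttr and Ahsg stood at percentiles 99.7 to 100.0 of all probe sets by mean, as liver markers. Against all probe sets, the mean of Cxcl12 (11.05) stood at percentile 94.8, that of Ccl2 (6.58) at 32.1, that of Cxcl1 (6.55) at 31.5 and that of Cxcl13 (6.04) at 22.3. No detection call was used, so whether the low levels of the last 3 lie above background was not tested. On 7 arrays transcripts of pancreas, or of muscle and fat, stood more than 1.5 above the median array. Called changes below that such an array enters are given with and without it. Changes that were not called, counts and list ranges are mostly given with it alone.

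Over the 98 treated groups Ccl2 was called higher in 5 and lower in 0, and Cxcl1 was called higher in 2 and lower in 0. Cxcl12 ran mostly the other way, called lower in 11 groups and higher in 1, and Cxcl13 was called lower in 4 and higher in 0. Over all probe sets and groups, 1.02% of tests were called higher and 0.731% lower. Of all probe sets, 7.01% were called higher in at least as many groups as Ccl2 and 17.12% in at least as many as Cxcl1, while 1.51% were called lower in at least as many as Cxcl12 and 6.73% in at least as many as Cxcl13. The residual SD between animals was 0.21 for Ccl2, 0.44 for Cxcl1, 0.27 for Cxcl12 and 0.26 for Cxcl13.

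**Figure D1:**
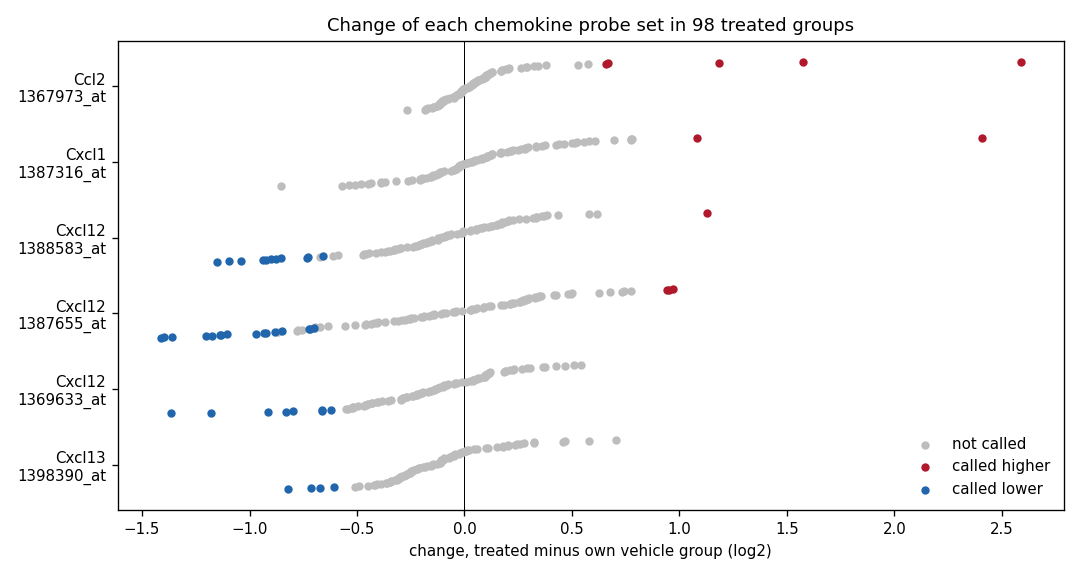
Change of the 6 probe sets (rows, members and their probe set) in each of 98 treated groups, as log2 treated minus own vehicle (horizontal axis); points within a row are set in order of size, and colour marks the call. Ccl2 has 5 groups and Cxcl1 has 2 called higher, out to 2.59 and 2.41, while Cxcl12 and Cxcl13 have their calls mostly on the low side.

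Under Aap, Cxcl1 was high at 6 hours and Ccl2 at 24 and 48 hours. Cxcl1 was 5.30-fold higher at 6 hours and 2.12-fold higher at 12 hours, with no call later, and Ccl2 was 2.98-fold higher at 24 hours and 6.01-fold higher at 48 hours, with no call earlier. Cxcl12 was lower at 6, 24 and 48 hours, to 0.45-fold of saline at 48 hours, and Cxcl13 was not called at any hour. The share of all probe sets called higher was 2.75% at 6 hours, 0.8% at 12 hours, 6.72% at 24 hours and 6.01% at 48 hours. The share called lower was 2.51%, 1.12%, 4.08% and 4.03% at these hours.

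At 6 hours Cxcl1 measured 8.92, 9.41 and 8.65 in Aap livers, against 7.30, 6.30 and 6.17 in saline livers. All 3 Aap livers lay above all saline livers, one of which was itself about a unit above the other two. The change was 2.41 ± 0.36 (adjusted p = 5.2e-09, limma). The third Aap liver at 6 hours was one of the arrays with muscle and fat transcripts, 2.80 above the median array on that list, and without it the change was 2.58 ± 0.40 (adjusted p = 4.3e-08).

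At 12 hours Cxcl1 measured 6.66, 7.83 and 6.47 in Aap livers, against 5.73, 6.06 and 5.92 in saline livers. The groups did not overlap, but this saline group had the lowest Cxcl1 mean of the 38 vehicle groups, 5.90. The median of all vehicle livers was 6.39. The Aap mean was carried by the second animal. The change of 1.08 ± 0.36 (adjusted p = 0.048, limma) was 0.66 without that animal and then passed no threshold, and in a fit of these groups alone its adjusted p was 0.20. At 24 hours the levels were 6.58, 6.86 and 7.57 in Aap livers, against 6.25, 6.62 and 6.39 in saline livers, and at 48 hours 7.07, 5.86 and 7.12 in Aap livers, against 6.47, 6.38 and 6.84 in saline livers. These groups overlapped, with changes of 0.58 ± 0.36 (adjusted p = 0.22) and 0.13 ± 0.36 (adjusted p = 0.80, limma).

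Ccl2 was not called in the first 12 hours. It measured 6.36, 6.34 and 6.40 in Aap livers at 6 hours, against 6.41, 6.53 and 6.44 in saline livers, a change of -0.09 ± 0.17 (adjusted p = 0.84, limma). At 12 hours it measured 6.51, 6.47 and 6.44 in Aap livers, against 6.50, 6.29 and 6.46 in saline livers, a change of 0.05 ± 0.17 (adjusted p = 0.94, limma).

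At 24 hours Ccl2 measured 8.30, 7.26 and 8.36 in Aap livers, against 6.39, 6.50 and 6.30 in saline livers, with every Aap liver above every saline liver. The change was 1.57 ± 0.17 (adjusted p = 8.1e-16, limma). At 48 hours it measured 9.99, 7.02 and 10.32 in Aap livers, against 6.56, 6.49 and 6.51 in saline livers. The groups again did not overlap, but the second Aap liver stayed far below the other two, which held the highest Ccl2 of all 421 arrays. The change was 2.59 ± 0.17 (adjusted p = 1.1e-34, limma), where the SE rests on the spread over all groups; with only the compared groups in the fit, adjusted p = 0.061. Leaving out 1 animal moved the change between 1.98 (without the third Aap liver) and 3.63 (without the second).

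The changes themselves were compared between hours, each against its own saline group. Ccl2 rose further by 1.52 ± 0.25 between 12 and 24 hours (adjusted p = 9.7e-08, limma), where 9.54% of all probe sets were called in either direction. Between 24 and 48 hours the difference was 1.01 ± 0.25 (adjusted p = 0.0015, limma; 4.66% called), 0.74 without the first and 0.60 without the third treated animal of each group, when it was no longer called. Between 6 and 12 hours it was 0.15 ± 0.25 and not called (3.67% called).

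For Cxcl1 no difference between neighbouring hours was called, the first being -1.32 ± 0.50 between 6 and 12 hours (adjusted p = 0.12, limma). Comparisons with 6 hours were added after its values were seen. Relative to 6 hours the Cxcl1 change differed by -1.83 ± 0.50 at 24 hours (adjusted p = 0.0034, limma) and by -2.28 ± 0.50 at 48 hours (adjusted p = 0.00012). Without the array with muscle and fat transcripts both were still called (adjusted p = 0.0028 and 0.00013, limma). For Ccl2 the same differences were 1.67 ± 0.25 (adjusted p = 3.5e-09) and 2.68 ± 0.25 (adjusted p = 1.1e-20), or 1.68 and 2.70 without that array. The second of these ran from 2.09 to 3.71 when the same-numbered treated or vehicle animal was left out at both hours. With only the compared groups in the fit its adjusted p was 0.063 (limma). Of all probe sets, 10.5% were called for 24 against 6 hours and 12.4% for 48 against 6 hours.

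**Figure D2:**
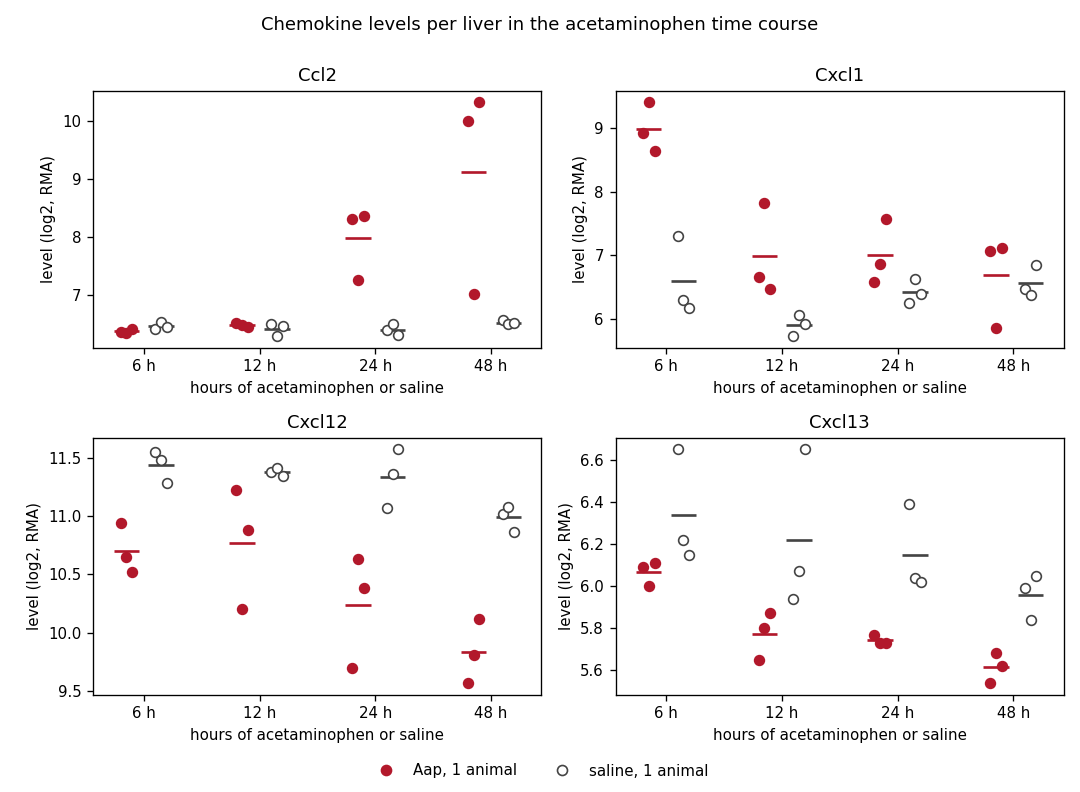
Level of each member (log2, vertical axis) in single livers at 6, 12, 24 and 48 hours of Aap (filled, left) or saline (open, right); bars are group means of 3 animals. Cxcl1 stands apart from saline at 6 hours, Ccl2 at 24 and 48 hours with 1 lower animal at 48 hours (7.02), and Cxcl12 lies below saline at every hour.

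Cxcl12 measured 10.94, 10.65 and 10.52 in Aap livers at 6 hours, against 11.55, 11.48 and 11.28 in saline livers, a change of -0.73 ± 0.21 (adjusted p = 0.0079, limma). The groups did not overlap. Without the third Aap liver, which carried muscle and fat transcripts, the change was -0.64 with an adjusted p of 0.067.

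At 12 hours Cxcl12 measured 11.22, 10.20 and 10.88 in Aap livers, against 11.38, 11.41 and 11.34 in saline livers, again without overlap but not called (-0.61 ± 0.21, adjusted p = 0.071, limma). At 24 hours it measured 9.70, 10.63 and 10.38 in Aap livers, against 11.07, 11.36 and 11.57 in saline livers, a change of -1.10 ± 0.21 (adjusted p = 6.2e-06, limma). At 48 hours it measured 9.57, 9.81 and 10.12 in Aap livers, against 11.02, 11.08 and 10.86 in saline livers, a change of -1.15 ± 0.21 (adjusted p = 2.0e-06, limma). The Aap livers lay below the saline livers at all 4 hours.

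The other probe sets of Cxcl12 showed the same dip with a different shape. For 1369633_at the changes were -1.18, -0.38, -1.37 and -0.83 at 6, 12, 24 and 48 hours, and for 1387655_at they were -1.36, -0.17, -1.41 and -1.11. Both were called at 6, 24 and 48 hours and neither at 12 hours, and without the third Aap liver at 6 hours the changes there were -1.08 and -1.42, both called. The change at 24 hours was below that at 12 hours by a called difference on both, -0.98 ± 0.27 (adjusted p = 0.0031, limma) and -1.25 ± 0.38 (adjusted p = 0.010), and on 1388583_at the difference was -0.48 ± 0.30 (adjusted p = 0.28).

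Cxcl13 lay lower in all 3 Aap livers than in all 3 saline livers at each hour, by small amounts. At 24 hours it measured 5.77, 5.73 and 5.73 in Aap livers, against 6.39, 6.04 and 6.02 in saline livers, a change of -0.41 ± 0.21 (adjusted p = 0.13, limma). The changes at 6, 12 and 48 hours were -0.27, -0.45 and -0.35, none called.

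Some markers of leukocytes were called higher at 24 and 48 hours, when Ccl2 was high. Their part in the Ccl2 changes was not tested. At 24 hours the median change was -0.212 over macrophage and monocyte markers, 0.001 over neutrophil markers and -0.133 over B and T cell markers. At 48 hours these medians were 0.345, 0.045 and -0.144. Of 13 B and T cell markers, 0 were called at 24 hours and 2 higher at 48 hours, Coro1a and Cd8a. At 6 hours, when Cxcl1 was high, none of the markers on these lists was called higher. Lyz2 of the macrophage list was called lower then (-1.16). Without the array with muscle and fat transcripts its change was -0.93 and not called. At 48 hours the mean of 13 macrophage and monocyte markers was 9.76 to 10.04 in Aap livers, against 8.94 to 9.17 in saline livers. Of the 13, 5 were called higher and 1 lower, against 6.01% and 4.03% of all probe sets. Gpnmb, a glycoprotein of lipid-laden and injury macrophages, was higher by 4.28 ± 0.33 and Lgals3, the lectin galectin-3, by 3.47 ± 0.26. Cd14, the lipopolysaccharide co-receptor, was lower (-0.84 ± 0.19). At 24 hours this list ranged from 9.13 to 9.20 in Aap livers, against 9.03 to 9.12 in saline livers, with Gpnmb (1.42 ± 0.33), Lyz2 (1.33 ± 0.32) and Lgals3 (1.24 ± 0.26) called higher and Cd14 (-0.90 ± 0.19) and Clec4f (-0.73 ± 0.26) lower. At 6 hours it ranged from 8.82 to 9.08 in Aap livers, against 9.03 to 9.09 in saline livers.

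The mean of 10 neutrophil markers was 6.12 to 6.21 in Aap livers at 6 hours, against 6.11 to 6.29 in saline livers, with 0 called. At 12 hours it was 6.18 to 6.43 in Aap livers, against 6.05 to 6.20 in saline livers, and S100a9, a calcium-binding protein of neutrophils and monocytes, was called higher (0.79 ± 0.19). At 24 hours it was 6.29 to 6.52 in Aap livers, against 6.16 to 6.22 in saline livers, with Fcnb, ficolin B (1.24 ± 0.10), and S100a9 (0.76 ± 0.19) called higher. At 48 hours it was 6.22 to 6.57 in Aap livers, against 6.16 to 6.22 in saline livers. Fcnb (1.23 ± 0.10), Cybb (an NADPH oxidase subunit, 0.68 ± 0.12) and S100a9 (0.65 ± 0.19) were called higher then. For S100a9 these groups overlapped, at 6.94, 6.14 and 7.72 in Aap livers, against 6.23, 6.19 and 6.41 in saline livers. Of all probe sets, 0.8% were called higher at 12 hours, 6.72% at 24 hours and 6.01% at 48 hours.

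The Aap liver with low Ccl2 at 48 hours was low in other genes as well. In the same 3 animals Spp1, osteopontin, measured 10.91, 7.35 and 11.47, against 7.30, 7.26 and 7.25 in saline livers, and Timp1, an inhibitor of matrix proteases, measured 9.57, 7.91 and 10.76, against 7.09, 7.42 and 7.23. Gpnmb measured 12.54, 11.41 and 12.58 in the Aap livers, against 7.79, 8.03 and 7.89. There the second animal was again the lowest, but far above the saline livers. Egr1, an immediate early gene, was as high in it as in the first: 10.50, 10.64 and 11.62 in Aap livers, against 7.52, 6.88 and 7.95.

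Among 16 stellate cell and fibroblast markers, Lrat, the enzyme that stores vitamin A as ester in resting stellate cells, was lower under Aap at all 4 hours: -0.62 ± 0.19 (-0.75 without the array with muscle and fat transcripts), -1.23 ± 0.19, -1.30 ± 0.19 and -1.05 ± 0.19. Pdgfrb was called lower at 6 hours (-0.62, and -0.63 without that array) and Dcn higher at 12 hours. Timp1 was called higher and Col3a1 lower at 24 hours. At 48 hours Timp1 (2.17 ± 0.30), Tagln (a smooth muscle actin-binding protein, 1.90 ± 0.24), Acta2 (smooth muscle actin, 1.04 ± 0.13) and Col1a2 (0.63 ± 0.27) were called higher. These were 4 of the 16, against 6.01% of all probe sets. Col1a2 measured 8.89, 7.94 and 10.32 in Aap livers, against 8.74, 8.41 and 8.09 in saline livers. These groups overlapped, and the third Aap liver lay far above the others. Of 10 sinusoidal endothelial markers, Kdr, the receptor of VEGF, was called lower at 24 hours (-0.71 ± 0.18) and 0 were called at 48 hours. Lyve1 of the same list was called higher at 6 hours (0.83, adjusted p = 0.00095, limma). Without the array with muscle and fat transcripts its change was 0.90 and still called. Stab1 of this list went the other way at 6 hours, at -0.53 and under 1.5-fold. Without that array Stab1 was called lower (-0.61). Of 13 hepatocyte markers 4 were called lower at 48 hours, against 4.03% of all probe sets: Apoa2, Cps1, Ass1 and Cebpa. The list means of stellate markers overlapped between Aap and saline livers at 48 hours, 7.85 to 8.96 against 8.05 to 8.18.

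Outside Aap, Ccl2 was called higher in ETH_1d and in MDA_3d and MDA_7d. In ETH_1d it measured 7.93, 8.18 and 7.07, against 6.48, 6.46, 6.68 and 6.55 in CMC livers, with no overlap. The change was 1.18 ± 0.16 (adjusted p = 6.6e-11, limma), 2.27-fold.

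By day 3 of ETH the levels were 7.24, 6.88 and 6.86, against 6.48, 6.47, 6.45 and 6.46 in CMC livers. The groups still did not overlap, but the change of 0.53 ± 0.16 (adjusted p = 0.0045, limma) was under 1.5-fold. On days 7 and 14 the changes were -0.13 and -0.005, with overlapping groups. The difference of day 3 minus day 1 was -0.66 ± 0.23 (adjusted p = 0.036, limma). Over the time differences of these 10 compounds 0.751% of all probe sets were called. Leaving out the second treated animal of both days gave a difference of -0.38. With only the compared groups in the fit its adjusted p was 0.30 (limma).

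Under MDA, Ccl2 measured 6.93, 6.84 and 7.75 on day 3, against 6.38, 6.49 and 6.66 in corn oil livers (0.66 ± 0.17, adjusted p = 0.017, limma). On day 7 it measured 7.75, 6.63 and 6.99, against 6.39, 6.44 and 6.53 (0.67 ± 0.17, adjusted p = 0.014). On day 14 it measured 7.13, 7.02 and 6.95, against 6.38, 6.50 and 6.49 (0.57 ± 0.17, adjusted p = 0.023), just under 1.5-fold. The treated livers lay above the corn oil livers on all 3 days, while on day 1 they overlapped (-0.02 ± 0.17). Both calls rested on single animals: 0.37 without the third treated animal on day 3 and 0.36 without the first on day 7, with adjusted p = 0.52 and 0.58, and neither was made with only the compared groups in the fit (adjusted p = 0.24 and 0.56).

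In order of size the Ccl2 changes ran Aap_48h, Aap_24h, ETH_1d, MDA_7d, MDA_3d, MDA_14d (0.57), ETH_3d (0.53) and DMN_7d (0.38). The gaps after Aap_48h and after ETH_1d were over 2 SE of the gap; Aap_24h and ETH_1d, and the groups from MDA_7d downwards, did not differ from their neighbours by that much. The lowest changes, CFX_14d (-0.27), Prop_14d (-0.18) and Ibup_3d (-0.18), were not called. In the 128 vehicle livers Ccl2 stayed between 6.24 and 6.76, and 0 of them exceeded 7.5, against 8 of 293 treated livers. AlAl, TAA, AB1, MPy, NNM, NPip and NNK were not called at any day.

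The macrophage and monocyte list was 9.16 to 9.71 in ETH_1d livers, against 8.64 to 8.73 in their CMC livers, and the neutrophil list was 6.36 to 6.50, against 6.12 to 6.24. In MDA_3d livers the macrophage list was 9.22 to 9.59, against 9.03 to 9.31 in corn oil livers, and in MDA_7d livers 9.25 to 9.36, against 8.91 to 9.12. Their part in the Ccl2 changes was not tested. In ETH_1d, 6 of 13 macrophage markers were called higher and 1 lower, Cd14 (-0.81 ± 0.18), against 5.39% and 4.55% of all named genes. Among the higher ones were Lyz2 (lysozyme, 2.06 ± 0.30) and Clec4f, a lectin of Kupffer cells (1.32 ± 0.24), which was lower in Aap_24h (-0.73 ± 0.26).

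**Figure D3:**
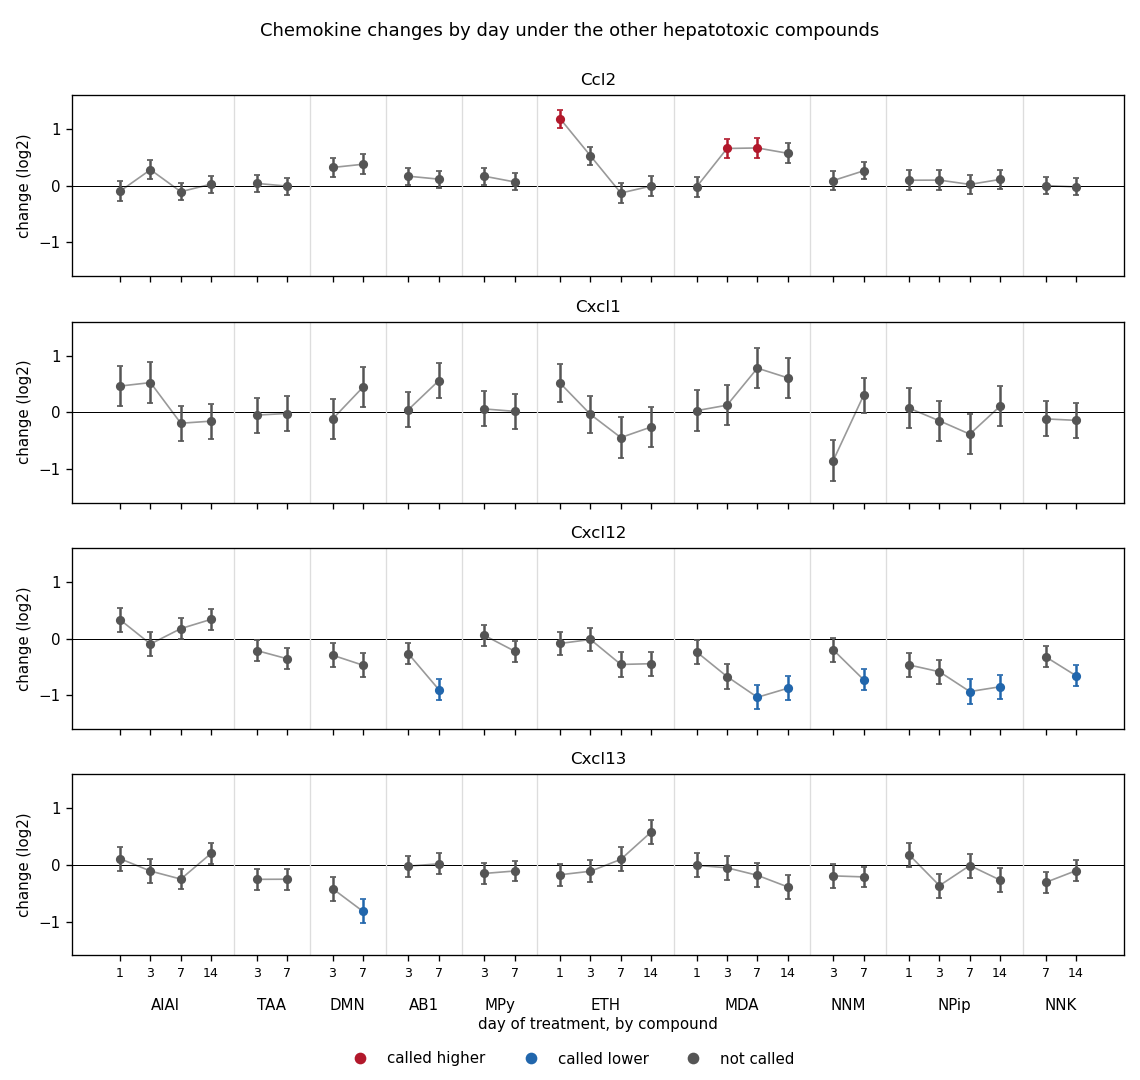
Change of each member ± SE (log2, vertical axis) by day of treatment for the 10 hepatotoxic compounds other than Aap (columns); colour marks the call. Ccl2 is high on day 1 of ETH and from day 3 of MDA, Cxcl12 lies low on the later days of AB1, MDA, NNM, NPip and NNK, and no Cxcl1 change is called.

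Outside Aap, Cxcl1 was called in no group, but single livers reached or passed the Aap levels. The highest Cxcl1 of the series was in the third animal of AlAl_3d: the group measured 6.24, 6.24 and 10.49, against 8.75, 6.19 and 6.46 in CMC livers, a change of 0.52 ± 0.36 (adjusted p = 0.91, limma). One liver was high in each of these groups, the vehicle group included. The next was the first animal of MDA_7d, with 9.65, 6.42 and 6.45 against 6.97, 6.72 and 6.50 in corn oil livers (0.78 ± 0.36, adjusted p = 0.30).

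Mcarb_3d measured 8.07, 7.09 and 6.36, against 6.28 to 7.03 in 6 CMC livers, and Mcarb_14d 6.65, 6.51 and 8.07, against 6.52, 6.28 and 6.34. In each, 1 liver stood above the rest. In 3-MC_7d, the group next in order after Aap, the livers measured 6.63, 7.78 and 7.79, against 6.35, 7.16 and 6.36 in corn oil livers (0.78 ± 0.36, adjusted p = 0.28, limma). Ibup_1d was the group of this size whose livers did not overlap with vehicle, at 7.07, 7.15 and 7.34 against 6.66, 6.22 and 6.35 (0.77 ± 0.36, adjusted p = 0.46).

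Levels over 8 were found in 7 of 293 treated livers, 3 of them Aap_6h, and in 2 of 128 vehicle livers. In vehicle livers Cxcl1 ranged from 5.73 to 8.75. The most negative change, NNM_3d (-0.86 ± 0.36), was taken against the same CMC livers as AlAl_3d, whose SD was 1.41 through 1 liver at 8.75; the NNM livers measured 6.08, 6.36 and 6.41.

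The MDA_7d animal with high Cxcl1 was also the extreme animal for other members. Its Ccl2 (7.75) was the highest of its group and its Cxcl12 (9.32) the lowest of all 421 arrays. Icam1, an adhesion molecule of activated endothelium, measured 10.50, 9.66 and 9.26 in MDA_7d livers, against 8.97 to 9.05 in corn oil livers (0.81 ± 0.16). Nfkb2, a subunit of NF-kappa B, measured 8.96, 7.09 and 7.17, against 7.09, 7.10 and 6.94, a change of 0.70 ± 0.14 with that animal far above the other two.

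Cxcl12 was called lower in MDA_7d (-1.04 ± 0.21), NPip_7d (-0.94 ± 0.21), CPA_1d (-0.92 ± 0.21), AB1_7d (-0.90 ± 0.19), MDA_14d (-0.88 ± 0.21), NPip_14d (-0.85 ± 0.21), NNM_7d (-0.73 ± 0.19) and NNK_14d (-0.66 ± 0.19), besides the Aap groups. In all 11 groups with such a call every treated liver lay below every vehicle liver. In NPip_7d the levels were 10.26, 9.91 and 10.05, against 11.08, 10.98 and 10.98 in CMC livers (adjusted p = 0.0011, limma). The third NPip_7d array carried muscle and fat transcripts, and without it the change was -0.93 and still called (adjusted p = 0.022), while that of 1387655_at, -0.88 with it, was -0.81 and not called.

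In CPA_1d they were 10.81, 10.55 and 9.99, against 11.41, 11.49 and 11.21 in corn oil livers (adjusted p = 0.00054, limma). In MDA_7d they were 9.32, 10.58 and 10.79, against 11.19, 11.17 and 11.44 (adjusted p = 0.00071); the first animal lay over 1 unit below the others, and without it the change was -0.58 and not called. In MDA_14d they were 10.25, 9.53 and 11.02, against 11.35, 11.04 and 11.05 (adjusted p = 0.0033), and without the second animal the change was -0.51 and not called.

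AB1_7d livers measured 10.36, 10.42 and 9.67, against 10.88 to 11.21 in 6 CMC livers (adjusted p = 5.5e-05, limma). NNM_7d livers measured 10.32, 9.87 and 10.64, against 10.76 to 11.29, and NNK_14d livers 9.85, 10.66 and 10.53, against 10.77 to 11.34. The first NNK_14d array carried pancreas transcripts, and without it the change was -0.41 and not called (adjusted p = 0.34), nor was that of 1387655_at (-0.44, against -0.70 with it). NNM_7d was not called without its second treated animal (-0.52), nor NPip_14d without its second (-0.72).

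The only call of 1388583_at upwards was DES_3d, where livers given the synthetic estrogen measured 11.78, 12.17 and 12.08, against 11.17, 10.97, 10.90 and 10.47 in CMC livers. The groups did not overlap, and the change was 1.13 ± 0.20 (adjusted p = 2.1e-06, limma). DES_1d, with 2 arrays, measured 11.56 and 11.92, against 11.20, 10.98, 10.77 and 11.70 (0.58 ± 0.23, adjusted p = 0.077). PB_14d was next in order at 0.62 ± 0.21 (adjusted p = 0.10), a gap to DES_3d within 2 SE. Without a CMC array of PB_14d that carried muscle and fat transcripts its change was 0.63 (adjusted p = 0.13, limma).

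In 6 groups all 3 probe sets of Cxcl12 were called lower: Aap_6h, Aap_24h, Aap_48h, CPA_1d, MDA_7d and MDA_14d. In 4 groups 2 of 3 were called and in 9 groups 1 of 3. No group had calls in both directions. Over the 98 groups the changes of 1388583_at correlated with those of 1369633_at at a Pearson r of 0.82 (Spearman 0.78) and with those of 1387655_at at 0.67 (Spearman 0.67), a description only, since groups share vehicle arrays.

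Nif parted the probe sets. On 1387655_at it was called lower on all 4 days, -1.18 ± 0.27, -1.40 ± 0.27, -1.20 ± 0.27 and -0.93 ± 0.27 on days 1, 3, 7 and 14. On day 3 the Nif livers measured 7.84, 8.10 and 7.80 there, against 9.40, 9.51 and 9.03 in CMC livers, without overlap. On the same days 1388583_at changed by -0.21, -0.12, -0.06 and 0.25, and 1369633_at by -0.14, 0.06, 0.09 and 0.29, none of them called. DHEA_1d (0.97 ± 0.27), AA_7d (0.95 ± 0.23) and AA_14d (0.94 ± 0.27) were called higher on 1387655_at, with -0.15, -0.11 and 0.20 on 1388583_at. Which part of the transcript each probe set measures was not analysed here, so a change on 1387655_at alone is given as that of the probe set.

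**Figure D4:**
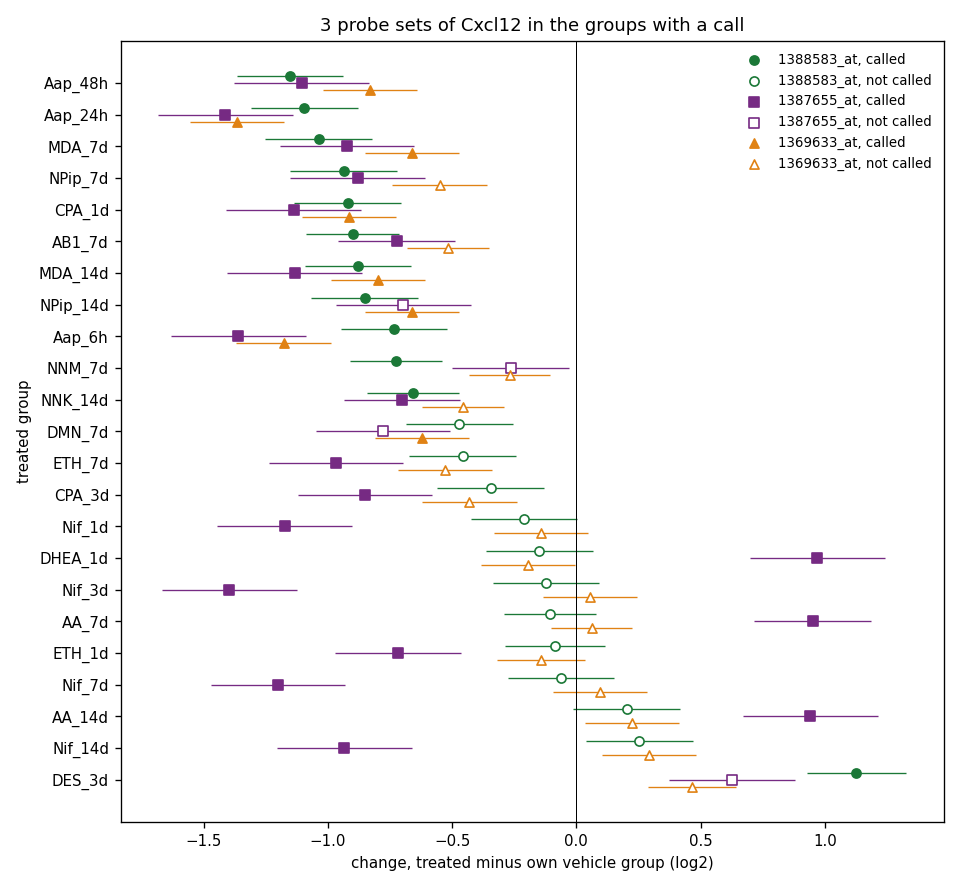
Change ± SE (log2, horizontal axis) of the 3 Cxcl12 probe sets in the 23 treated groups (vertical axis) with a call on any of them; filled marks are called. The probe sets move together in the Aap, MDA and CPA_1d groups, and 1387655_at stands apart from the others in the Nif, AA and DHEA_1d groups.

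Calls among stellate and endothelial markers differed between the groups with low Cxcl12, and their part in it was not tested. Lrat was called lower in CPA_1d, MDA_7d and MDA_14d, as under Aap. In NNM_7d 6 of 16 stellate cell and fibroblast markers were called higher and 0 lower, in AB1_7d 4 and 0, and in NPip_7d 3 and 0, with the matrix proteoglycan gene Dcn among them each time. Of all named genes 0.922%, 2.81% and 1.68% were called higher in these groups. Without the NPip_7d array with muscle and fat transcripts, Dcn (1.01) was the one still called there, while Des (0.25) and Lum (0.17) were not. Of the sinusoidal endothelial markers Kdr and Fcgr2b were called lower in MDA_7d, and 0 of 10 in AB1_7d, NNM_7d, NPip_7d, CPA_1d and DES_3d. Of the macrophage and monocyte markers 6 of 13 were called lower in CPA_1d, the complement genes C1qa, C1qb and C1qc among them, against 2.28% of all named genes. In AB1_7d 8 of 13 were called higher, with these complement genes among them, and Cd14 lower, and 9 of 11 bile duct markers were called higher.

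Cxcl13 was called lower in DMN_7d, PBO_1d, DES_1d and CIDB_7d. In DMN_7d it measured 5.74, 5.45 and 5.75, against 6.26, 7.12 and 6.02 in corn oil livers, a change of -0.82 ± 0.21 (adjusted p = 0.0073, limma). The groups did not overlap, but CIDB_7d, at 5.81, 6.09 and 5.67 against the same corn oil livers (-0.61 ± 0.21, adjusted p = 0.033), overlapped with them. One corn oil liver stood at 7.12, and without it the changes were -0.49 and -0.28, and neither was called. This corn oil group had the highest Cxcl13 mean of the 38 vehicle groups, 6.47.

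PBO_1d livers measured 5.64, 5.81 and 5.80 and DES_1d livers 5.84 and 5.74, against 6.36, 6.80, 6.71 and 5.98 in the CMC livers that both share. The changes were -0.71 ± 0.20 (adjusted p = 0.0027, limma) and -0.67 ± 0.22 (adjusted p = 0.030). The shared CMC group had the highest Cxcl13 mean of the 24 CMC groups, 6.46, against a median of 6.10 over all CMC livers. In fits of the compared groups only, 1 of the 4 calls was made. Of 13 B and T cell markers, 1 was called in DMN_7d (Coro1a, an actin-binding protein of leukocytes, higher) and 0 in PBO_1d, DES_1d and CIDB_7d. The macrophage and monocyte markers had 5 of 13 called higher in DMN_7d and 4 in CIDB_7d, against 1.09% and 2.47% of all named genes, with Cd14 called lower in both groups and 0 called in PBO_1d and DES_1d, and their part in the low Cxcl13 was not tested.

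The changes of Cxcl13 lay below 0 in 75 of 98 groups, with a median of -0.15, and 2.74% of all probe sets had at least as many groups below 0. Its highest changes, Praz_1d (0.70 ± 0.21), ETH_14d (0.58 ± 0.21) and Nif_1d (0.47 ± 0.21), were not called. In Praz_1d the livers measured 7.77, 6.54 and 5.97, against 6.11, 6.28 and 5.78 in CMC livers, and the first array carried pancreas transcripts, 4.10 above the median array on that list; without it the change was 0.20. In ETH_14d they measured 7.34, 6.18 and 6.21, against 6.33, 5.75 and 5.91, where again 1 liver stood above the rest.

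Among the groups described above, ETH_1d and DMN_7d had the most other chemokine ligands called, and the Aap and MDA groups had at most 1 each. Of 21 other ligands measured, of 30 listed, Cxcl10, an interferon-induced attractant of T cells, was called higher in Aap_24h (1.02 ± 0.17) and Aap_48h (0.68 ± 0.17), and 0 were called in Aap_6h or Aap_12h. Cxcl10 measured 6.79, 7.52 and 8.06 in Aap livers at 24 hours, against 6.39, 6.46 and 6.44 in saline livers, with no overlap. Over all named genes 7.95% were called higher in Aap_24h and 7.12% in Aap_48h, so 1 of 21 is a share of 4.76% below that background.

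In ETH_1d 6 of the 21 ligands, 28.6%, were called higher, against 5.39% of all named genes. Cxcl9, another interferon-induced attractant of T cells, measured 10.05, 11.51 and 10.45 in ETH livers, against 8.20, 8.12, 8.39 and 8.54 in CMC livers (2.36 ± 0.29). Cxcl10 (2.29 ± 0.16), Ccl6 (1.08 ± 0.27), Ccl4, an attractant of monocytes and T cells (1.00 ± 0.09), Cxcl16 (0.65 ± 0.11) and Cxcl14 (0.59 ± 0.14) followed. The median change of the 21 was 0.045 there, against 0.003 for all named genes. In DMN_7d, where Cxcl13 was low, 3 of 21 (14.3%) were called higher, against 1.09% of all named genes: Cxcl9, Cxcl10 and Pf4, a chemokine of platelets (0.91 ± 0.20). In MDA_3d and MDA_7d 0 of 21 were called.

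Over the 98 groups Cxcl10 was called higher in 10 and Cxcl9 in 6. Ccl6 was called higher in 6, all of them ETH or AA groups, and lower in 8, among them all 4 CPA groups. Cxcl2 and Cxcl3, which share the receptor Cxcr2 with Cxcl1, were called in 0 groups, with changes between -0.35 and 0.24 and between -0.28 and 0.18. Their levels carry the same limit as those of Cxcl1, since no detection call was used.

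Of 12 receptors measured, of 23 listed, 0 were called in Aap, ETH_1d, MDA_3d or MDA_7d. Ccr2, the receptor of Ccl2, Cxcr2, that of Cxcl1, Cxcr4, that of Cxcl12, and Cxcr5, that of Cxcl13, were called in 0 of the 98 groups, with highest changes of 0.29, 0.23, 0.31 and 0.43. Ackr3, the scavenging receptor of Cxcl12, was called higher in 4 groups, 3 of them 3-MC (up to 1.09), and lower in 1. The fourth was NPip_7d (0.69), where the change was 0.53 and under 1.5-fold without the array with muscle and fat transcripts.

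**Figure D5:**
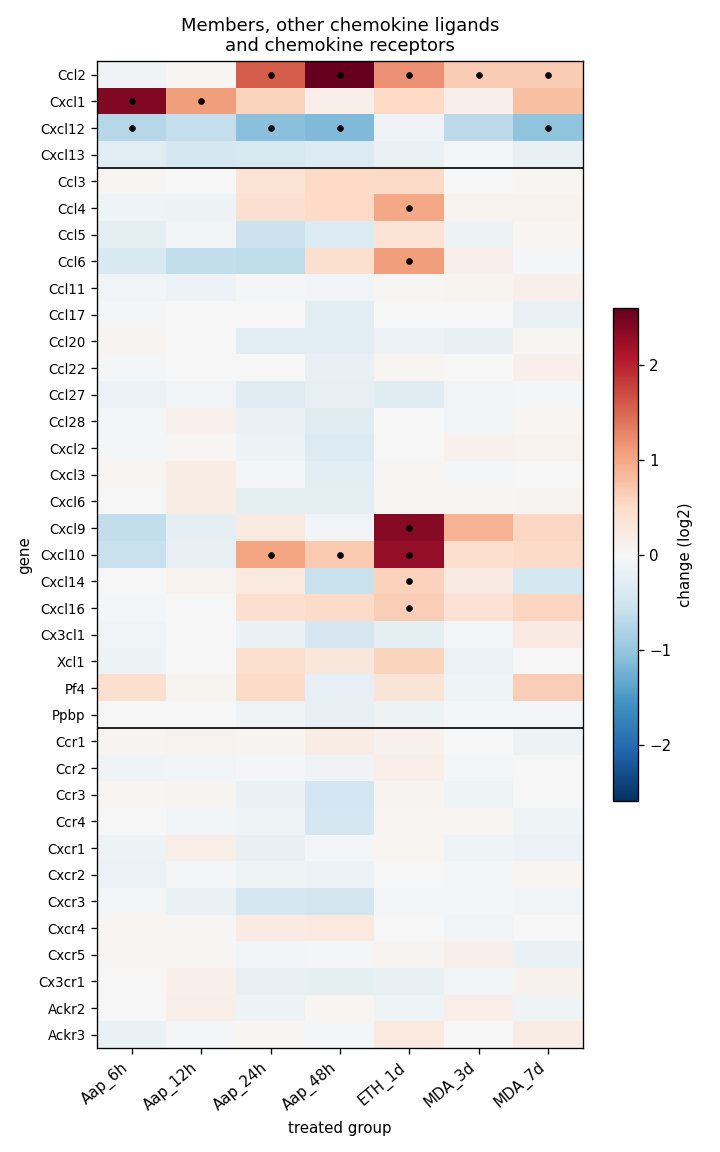
Change (log2, colour) of the 4 members, the 21 other ligands and the 12 receptors (rows, separated by lines) in 7 treated groups (columns); dots mark calls. Calls beyond the members are Cxcl10 in Aap_24h and Aap_48h and 6 ligands in ETH_1d, with none among the receptors.

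Among 25 genes of inflammatory signalling, 3 were called higher in Aap_6h, when Cxcl1 was high: Il1r1, the interleukin 1 receptor (0.77 ± 0.12), Vcam1, an adhesion molecule (0.73 ± 0.22), and Nfkbia, the inhibitor of NF-kappa B that is also its target (0.62 ± 0.20). Without the array with muscle and fat transcripts the changes were 0.73, 0.81 and 0.63, and that of Nfkbia was not called (adjusted p = 0.053, limma). In Aap_24h 5 were higher, led by Atf3, a stress-induced transcription factor, at 10.01, 6.99 and 9.22 in Aap livers against 5.26, 5.36 and 5.40 in saline livers (3.40 ± 0.21). Of all named genes 3.06% were called higher in Aap_6h, 7.95% in Aap_24h and 5.39% in ETH_1d. In ETH_1d 7 of the 25 were higher, among them the cytokine genes Il1b (1.00 ± 0.13) and Il1a (0.74 ± 0.13).

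The genes whose changes over the 98 groups were most like those of Ccl2 were Fcnb (Pearson r 0.80), the glycine transporter gene Slc6a9 (0.75), Atf3 (0.74), S100a4 (0.74) and Aida (0.70). Without the 4 Aap groups these were 0.57, 0.49, 0.59, 0.55 and 0.60 over 94 groups. By Spearman over the 98 groups they were lower, at 0.271, 0.219, 0.538, 0.392 and 0.335. For Cxcl1 they were Pptc7 (0.62), the transcription factor gene Stat3 (0.61), Atp1b1 (0.61), Itpr1 (0.60) and Junb (0.60), which without Aap were 0.09, 0.42, 0.22, 0.12 and 0.38. The Spearman values of these genes over the 98 groups were 0.166, 0.44, 0.269, 0.18 and 0.448. The likeness of Pptc7 and Itpr1 to Cxcl1 fell most when the Aap groups were left out.

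For Cxcl12 they were Inmt, a methyltransferase gene (0.60), the prostaglandin transporter gene Slco2a1 (0.57), Sult1c2a (0.56), Cd14 (0.55) and the vasopressin receptor gene Avpr1a (0.52), and without Aap 0.44 to 0.56. For Cxcl13 they were Gpx7 (0.47), glutamine synthetase Glul (0.45), Rad54l2 (0.43), Nat8b (0.43) and Nmnat2 (0.41). By Spearman the genes listed for Cxcl12 ran from 0.448 to 0.582 and those for Cxcl13 from 0.339 to 0.523. Ccl2 and Cxcl1 correlated with each other at 0.19 (Spearman 0.26) and Ccl2 with Cxcl12 at -0.45 (Spearman -0.34). All of these are descriptions over groups that share vehicle arrays, with no test.

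The study's classes were set against each other at each compound's last day, from day 3 to day 14, with the compound as the replicate. DMN and CIDB shared the same corn oil livers, CFX and Nif the same CMC livers, and AA, DHEA and Mcarb the same CMC livers. The fit took the changes as independent, so its SEs may be too small. All 8 non-genotoxic carcinogens were given in CMC, so class cannot be told apart from vehicle in the first comparison. Non-genotoxic carcinogens (8 compounds) minus genotoxic carcinogens (DMN and CIDB) gave 0.83 ± 0.18 for Cxcl13 (adjusted p = 0.18, limma), -0.20 ± 0.10 for Ccl2 (adjusted p = 0.55), -0.29 ± 0.23 for Cxcl1 (adjusted p = 0.73) and 0.39 ± 0.33 for Cxcl12 (adjusted p = 0.76). Carcinogens minus the non-carcinogens (CFX and Nif) gave 0.25 ± 0.10 for Ccl2 (adjusted p = 0.57), and no member passed in either comparison. The Cxcl13 changes of the non-genotoxic carcinogens ran from -0.15 to 0.58, and those of DMN and CIDB were -0.82 and -0.61, against the corn oil livers with 1 at 7.12. Of all probe sets, 16 passed for the first comparison and 0 for the second, where 1311 had an unadjusted p below 0.05.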

How the data were processed

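Total liver RNA was hybridized to RAE230A arrays, 1 per animal. The authors deposited log2 values computed with RMA (affy package; its version: not given in the sources used here), a method that subtracts background, brings the arrays to one distribution and combines the probes of each set. RMA can understate fold changes of dim probe sets. Symbols came from the platform table, updated by gene identifier; 12783 of 15866 probe sets had 1 symbol, 312 several and 2771 were not listed.

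Groups, doses, times and vehicle groups followed the labels. In R 4.3.3 with limma 3.58.1, 1 mean per group was fitted over all 421 arrays, with 285 residual and 4.67 prior degrees of freedom, and each treated group was contrasted with its own vehicle group. Differences between neighbouring times numbered 21. For arrays the number of animals, mostly 3 per group, limits the precision. The functions were tested on simulated data.

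Members, lists, comparisons and the rule for named genes were chosen with earlier results of these data known. The rule took the 4 members, the groups with a call, the 8 highest and 3 lowest groups, the 5 genes most alike by Pearson correlation over the 98 groups, and called list members. The lists, one per marker class or pathway, were described by counts. Genes named besides, such as Cxcl2, Cxcl3, Ccr2, Cxcr2, Cxcr4 and Cxcr5, were named for their link to a member.

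Alternatives were quantile normalization, a trend and robust prior, a filter at a mean of 6, a replicate block and a fit of only the compared groups. Further ones were other fold minimums, each compound left out, arrays with transcripts of another tissue left out, day 3 for the classes, and wider classes. Animals were left out by number: the treated, or the vehicle, animal of a given number was dropped from every group at once before the fit. Same-numbered arrays did not deviate together (mean correlation 0.0131 over 98 comparisons); every pair lay over 0.1 in 4, ETH_1d among them. The differences of 24 and 48 from 6 hours of Aap were chosen after seeing the data. Plots used matplotlib 3.10.9 under Python 3.11.15.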

Additional observations from a re-analysis of the deposited data

Results flagged for a closer look

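Several changes differed between times of one compound by a test of the difference itself (limma, adjusted over all probe sets). For Ccl2 under Aap the change at 24 hours exceeded that at 12 hours by 1.52 and the change at 48 hours exceeded that at 24 hours by 1.01. Against 6 hours the Ccl2 changes were higher by 1.67 at 24 hours and by 2.68 at 48 hours, and those of Cxcl1 differed by -1.83 and -2.28; these last 4 differences were chosen after the values were seen. With only the compared groups in the fit the Ccl2 differences of 48 from 24 and from 6 hours were not called (adjusted p = 0.67 and 0.063). Under ETH the Ccl2 change on day 3 differed from that on day 1 by -0.66, a call that was lost when treated or vehicle animals were left out. No vehicle group of 4 or 6 animals had a liver far outside its group by Dixon's test in 24 tests, which does not cover groups of 3, such as the CMC livers of day 3 with 1 Cxcl1 level of 8.75.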

How the results depend on the processing

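No called change or difference turned its direction under the alternatives run. Of 480 alternative values of single changes 439 kept their side of the threshold, of 315 time differences 302, and all 112 of the class differences. With only the compared groups in the fit, Ccl2 was called higher in 2 groups and Cxcl13 lower in 1; the Ccl2 change in Aap_48h kept its size of 2.59 (adjusted p = 0.061), its differences of 48 hours from 24 and 6 hours were 1.01 (adjusted p = 0.67) and 2.68 (adjusted p = 0.063), and the Cxcl1 change in Aap_12h was 1.08 (adjusted p = 0.20). At least 2-fold, Ccl2 was higher in 3 groups, Cxcl12 lower in 3 and Cxcl13 lower in 0. Cxcl12 was called higher in 0 groups on 1369633_at and in 3 on 1387655_at. With the replicate block Cxcl12 was called higher in 2 groups and NNK_14d was no longer called lower (-0.56); where the numbers deviated together, the block changed no member's call (ETH_1d, Ccl2 1.19). Without arrays carrying transcripts of another tissue, Cxcl12 in Aap_6h was -0.64 (adjusted p = 0.067).

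Leaving out the same-numbered treated or vehicle animal of every group moved the counts of called groups. Higher Ccl2 was then called in 3 to 6 groups and higher Cxcl1 in 1 to 3. Higher Cxcl12 was called in 1 to 2 groups and lower Cxcl13 in 1 to 4. The Ccl2 change in Aap_48h ranged from 1.98 to 3.63, the Ccl2 difference of 48 and 24 hours from 0.60 to 1.70, the Cxcl1 change in Aap_12h from 0.66 to 1.34, the Cxcl1 difference of 12 and 6 hours from -1.77 to -1.10, the Cxcl12 change in Aap_6h from -0.85 to -0.64 and in Aap_12h from -0.84 to -0.33, and the Cxcl12 difference of 24 and 12 hours from -0.96 to 0.01, a sign change of a difference that was not called. The cause was not tested. With 3 animals per group, chosen on histopathology, and dim probe sets for Ccl2, Cxcl1 and Cxcl13, small changes could not be resolved.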
